A study of Rattus norvegicus with 6 samples.

Results

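The transcripts described here encode the machinery that moves secretory cargo in membrane vesicles. The family was chosen with earlier results of these data known. Its members were then taken by gene symbol, from all probe sets named for 1 gene. The symbol begins with Rab, Arf, Sec, Stx, Vamp or Snap and a digit, or with Trappc, or is one of a short set of coat genes. This gave 67 genes with 97 probe sets, out of 4736 genes with 7006 probe sets named on the array. A probe set is the group of short oligonucleotides that measures one transcript, and its value is an intensity in linear units.

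Expression was measured in whole dorsolateral prostate of male rats of the inbred ACI strain, which were 18 months old. The groups were 3 rats given a high corn oil diet and 3 given a low corn oil diet, each for 18 months, with 1 array per rat. Both groups ate corn oil, so the comparison is between amounts of it, and the amounts are not in the labels. Each prostate was divided and one part went to RNA, so every value is an average over all cells of that part, and fewer cells of a type cannot be told apart from less RNA per cell. The labelled tissue was checked against 12 markers of secretory luminal epithelium, of which 10 were above the filter. Probasin (Pbsn) read 99574, 19851 and 21926 on the high corn oil arrays (replicates 1 to 3, the order used throughout) and 78113, 82039 and 81437 on the low. Msmb read at least 33652 on every array, so both secretory products were bright. Other secretory products on the list varied between arrays in other ways. Sbp read 1891, 45313 and 53056 against 39729, 6801 and 12179, and Tgm4 31002, 27652 and 13869.5 against 37737, 41267 and 5748.5. Svs5 was below the filter. The free-text description of high corn oil replicate 3 names the low diet, while its title and source name give the high diet, which was used.

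Proteins bound for secretion enter the endoplasmic reticulum through the Sec61 channel and leave it in vesicles with a COPII coat. Vesicles with a COPI coat, recruited by Arf GTPases, carry material back and between Golgi stacks, and the TRAPP complexes tether vesicles and activate Rab GTPases there. Rab GTPases mark each membrane, and SNARE proteins (syntaxins, SNAPs and VAMPs) pair across 2 membranes to fuse them. Prostate luminal cells are secretory cells that release large amounts of fluid and protein through this route.

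A probe set was tested if its mean over the 6 arrays was at least 343 units, which kept 78 of the 97 probe sets and 60 of the 67 genes. The 19 left out had means from -593 to 246 units, and 16 of them were at or below 0 on at least 1 array. They were the only probe sets of Rab27a, Rab29, Rab2a, Rab38, Rab4a, Sec14l3 and Snap91, so no change in these 7 genes could be measured. No detection calls were used, so a value near 0 cannot be called absent.

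No vesicle traffic gene passed the test. In limma over 5244 probe sets, 0 of the 78 had an adjusted p at or below the threshold of 0.05, as for the table as a whole, where 0.0% passed. At an unadjusted p under 0.05 there were 9 of 78 (11.5%), against 9.95% of all probe sets tested; 6 were higher under the high diet and 3 lower, where 5.15% and 4.81% of all were. In 15 of 78 (19.2%) the 3 values of one diet all lay beyond the 3 of the other, against 15.5% of all tested. Of these, 11 were higher under the high diet and 4 lower, against 8.83% and 6.71% of all probe sets. These shares lie near the background, so the counts are no result about vesicle traffic genes as a group. With high corn oil replicate 3 placed in the low diet, as its description has it, the groups were apart in 0 of 78. No share over all tested probe sets was taken for that placing, so the 0 is no result about the family or the label. The median log2 difference, high minus low, was 0.02 for the 78 and 0.03 for all 5244, and 40 of the 78 were above 0 (51.3%, against 53.9% of all). Differences are on the scale of log2(value + 156.1), which understates the change of dim genes.

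**Figure D1:**
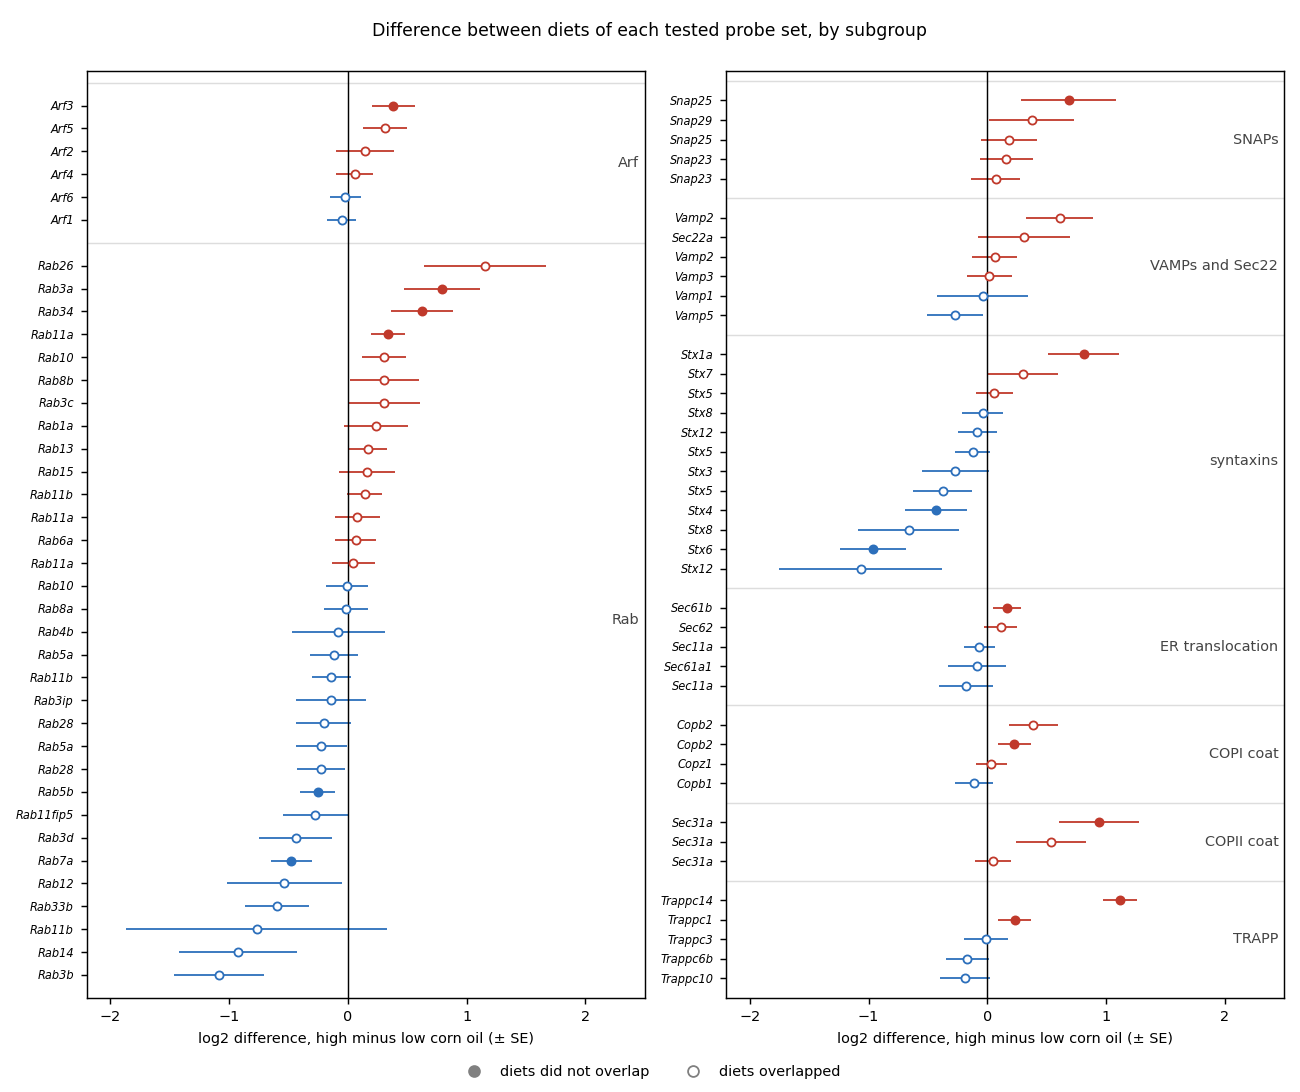
Log2 difference (high minus low corn oil) of each of the 78 tested probe sets, with its standard error, by subgroup; a gene with several probe sets appears once for each. Red marks differences above 0, blue those below 0, and filled points the 15 probe sets whose diets did not overlap, from Stx6 at -0.96 to Trappc14 at 1.12.

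The arrays were not alike within the high diet. High corn oil replicate 1 correlated better with the low corn oil arrays (Spearman correlation over tested probe sets 0.928 to 0.950) than with high corn oil replicates 2 and 3 (0.869 and 0.881). The 7 probe sets for bacterial spike-in controls, added at hybridization, also differed between arrays. Their level was above the median on 1 high corn oil array, replicate 1, and on replicates 1 and 2 of the low diet, here called the higher spike-in level, and below it on the other 3, the lower level. Their mean log2 signal was 14.04, 12.57 and 13.14 on high corn oil and 14.35, 13.90 and 13.03 on low. Differences within each level are given below for the main genes, and in others, such as Snap29 (-0.23 and 0.60), they also stood apart. Each compares 1 array of one diet with 2 of the other and has no error, so it describes and does not test. Within the high diet, spike-in level and replicate 1 cannot be told apart. In 37 of 78 vesicle traffic probe sets (47.4%, against 46.1% of all tested) high corn oil replicates 2 and 3 both lay beyond the low range on the same side. High corn oil replicate 1 lay with them in 15 of the 37, inside the low range in 13 and beyond the other end of it in 9. The 13 are 16.7% of the 78, against 19.2% of all tested probe sets. Over all 5244 tested probe sets the same 3 counts were 815, 1005 and 600. Leaving that array out, limma called 5 of the 78 at the adjusted threshold, against 4.08% of all probe sets: 2 of Sec31a and 1 each of Rab14, Rab34 and Trappc14. That array is singled out because it resembled the low arrays, so leaving it out widens the gap between the diets. The adjusted p-values without it, here and below, rest on a choice made from these same values and carry no support.

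Trappc14, which encodes a subunit of the TRAPP II tethering complex, had the smallest p-value of the family. Its intensity was 5032, 5421 and 5321 on high corn oil and 2404, 2145 and 2485 on low corn oil. The groups lay far apart, and high corn oil replicate 1 read like the other high arrays. The log2 difference was 1.12 ± 0.14 (SE), with a limma adjusted p of 0.462. It was 1.10 at the higher spike-in level and 1.07 at the lower, and from 1.06 to 1.16 when each array was left out in turn. Without high corn oil replicate 1 the limma adjusted p was 0.0225, and with no filter on low values it was 0.0325.

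The other 4 TRAPP genes were measured by 1 probe set each and lay between -0.19 and 0.23. Trappc1, a core subunit, read 7880.3, 8164 and 8618 against 6159.5, 7566 and 7322, a log2 difference of 0.23 ± 0.14 with groups that did not overlap. Trappc3, the core subunit that carries a lipid anchor, stood at -0.01 ± 0.19. The core subunit gene Trappc6b was at -0.17 ± 0.18 and the TRAPP II gene Trappc10 at -0.19 ± 0.21. The median of the 5 was -0.01, and Trappc14 was the only one of them above 0.23. Differences between the genes were not tested.

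The promoter of Trappc14 is printed because this gene gave the family's smallest p-value. The sequence is the window in RefSeq's GRCr8 table, from 250 bases before to 50 bases after the gene start, on the minus strand at chr12:22380602-22380901. Capitals mark CCACG, the letters that end the endoplasmic reticulum stress element.
Trappc14: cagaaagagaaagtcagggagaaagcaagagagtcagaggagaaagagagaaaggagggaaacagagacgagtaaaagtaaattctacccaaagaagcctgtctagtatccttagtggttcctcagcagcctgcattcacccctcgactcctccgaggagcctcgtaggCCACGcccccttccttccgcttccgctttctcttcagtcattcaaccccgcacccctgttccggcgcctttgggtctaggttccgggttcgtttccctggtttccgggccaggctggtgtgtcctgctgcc
The full element was not among the letters of this window, and 57.6% of the matched family members, 31.6% of all promoter windows and 41.6% of those of genes on the array hold CCACG on either strand.

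The COPII coat was measured through Sec31a, the outer coat subunit, and its 3 probe sets disagreed. The first read 2848, 5869 and 7455 on high corn oil and 2173.5, 2689 and 2804 on low corn oil (log2 difference 0.94 ± 0.34). A second read 2812, 5830.4 and 6162 against 3028, 3263 and 3219.5 (0.54 ± 0.29). Both were about level with the low arrays in high corn oil replicate 1 and well above them in replicates 2 and 3. The third, named for the same sequence entry as the first, read 9616, 10938 and 10819 against 9466, 9229 and 11873, a difference of 0.04 ± 0.15. Without high corn oil replicate 1 the former 2 stood at 1.33 and 0.89 (limma adjusted p = 0.0257 and 0.0313) and the third at 0.10. At the higher spike-in level the first was at 0.22 and the second at -0.15, and at the lower level they were at 1.19 and 0.87. The split between probe sets means that no single value stands for Sec31a.

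**Figure D2:**
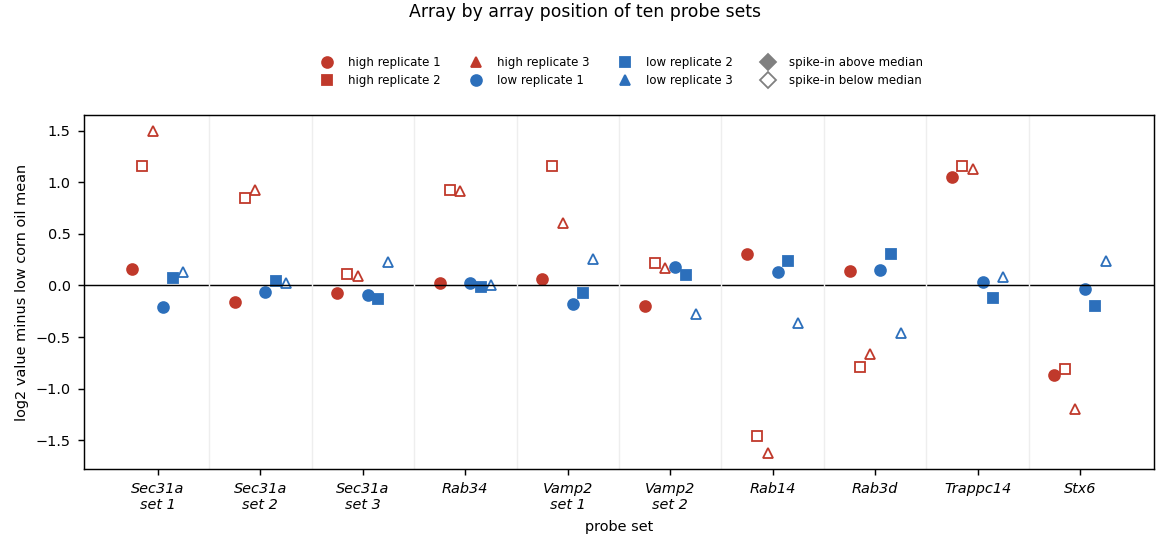
Log2 value of each array minus the mean of the 3 low corn oil arrays, for 10 probe sets of the genes discussed; red is the high diet, blue the low diet, the symbol gives the replicate, and filled symbols are arrays with spike-in signal above the median. In Trappc14 and Stx6 high corn oil replicate 1 lies with replicates 2 and 3, while in the first 2 Sec31a probe sets, Rab34, the first Vamp2 probe set, Rab14 and Rab3d it lies nearer to the low corn oil arrays.

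The 4 COPI probe sets lay between -0.11 and 0.39. Copb2, the beta' coat subunit, read 13181, 12678 and 15637 against 11937, 11989 and 11317.5 in one probe set (0.23 ± 0.14, groups apart) and 4747, 5812 and 5707 against 5306, 3925 and 3280.3 in the other (0.39 ± 0.20, groups overlapping). The second was at 0.054 at the higher spike-in level and 0.78 at the lower, and ran from 0.24 to 0.57 when each array was left out. The beta subunit gene Copb1 was at -0.11 ± 0.16 and the zeta subunit gene Copz1 at 0.03 ± 0.13. Copa and Sar1a had no probe set named for them alone and were not analysed here.

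Arf GTPases recruit coats and lipid enzymes to Golgi membranes and, for Arf6, act at the cell surface. Arf3, a Golgi Arf, read 2509, 2768 and 3317 against 1993.5, 2019 and 2456.5, a difference of 0.38 ± 0.18, with the groups apart by little. Arf5 was at 0.31 ± 0.18 and Arf2 at 0.14 ± 0.25. Arf1, the main COPI recruiter, read 34013, 30746.5 and 32353 against 32575.7, 33793 and 34379.5, and the diets overlapped (-0.05 ± 0.12). Arf4 (0.06 ± 0.15) and Arf6 (-0.02 ± 0.13) were as close to 0. Standard errors of 0.12 to 0.15 leave room for differences larger than the standard error itself in these genes.

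Several of these genes hold a promoter sequence that few other genes hold. RefSeq's GRCr8 promoter table held 59 of the 67 genes, and each 300-base window was searched on both strands for 15 motifs, chosen after the values were seen. The unfolded protein response element TGACGTGG, a site for the stress factors XBP1 and ATF6, was in 5 of 59 windows (8.47%): Arf1, Arf4, Copb1, Copb2 and Stx5. It was in 0.595% of all 33469 windows and in 0.594% of the 4206 windows of genes on the array. It contains the shorter motifs TGACG and, on the other strand, CCACG. The 5 genes are shown around the match, in capitals, in the direction of transcription, with TGACGTGG or its reverse complement CCACGTCA.
Arf1: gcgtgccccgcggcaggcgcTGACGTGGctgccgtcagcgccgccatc
Arf4: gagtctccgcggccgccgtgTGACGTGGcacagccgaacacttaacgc
Copb1: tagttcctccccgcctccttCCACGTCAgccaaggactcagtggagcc
Copb2: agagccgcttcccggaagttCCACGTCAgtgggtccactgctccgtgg
Stx5: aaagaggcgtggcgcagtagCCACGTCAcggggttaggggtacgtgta
These windows lie at chr10:44513997-44514044 (minus strand), chr16:1903407-1903454 (plus), chr1:177872819-177872866 (minus), chr8:108040657-108040704 (plus) and chr1:215066493-215066540 (plus). Each match begins 6 to 30 bases before the annotated gene start, and Stx5 holds a second match 11 bases after it. A match describes letters and not binding, and among the 5 genes none but Copb2 had a probe set with groups apart. Stx5 stood at 0.06 ± 0.16, -0.12 ± 0.15 and -0.38 ± 0.25 in its 3 probe sets.

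For the other motifs, shares are given for the family, then for all windows, then for those of genes on the array. The full endoplasmic reticulum stress element, which holds CCAAT and CCACG, was in 0 of 59 windows (0.0657% and 0.166%), and the sterol regulatory element also in 0 (0.125% and 0.0%). CCAAT was in 42.4% (37.5% and 37.8%), TGACG in 40.7% (21.2% and 28.3%) and the full cyclic AMP element TGACGTCA in 1.69% (1.83% and 2.43%). The GC box GGGCGG was in 78.0% (33.1% and 55.7%), the ETS core CCGGAAG in 22.0% (8.75% and 11.8%) and the antioxidant element TGACNNNGC in 25.4% (12.1% and 14.3%). CACGTG, the centre of the longer lysosomal element (CLEAR), was in 6.78% (6.42% and 8.39%), and that longer element in 1.69% (0.233% and 0.428%). The shorter form of the neuronal repressor site, TTCAGCACC, was in 1.69% (0.356% and 0.428%), the NRF1 site in 3.39% (0.852% and 1.19%) and the YY1 site in 5.08% (0.675% and 1.05%).

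The 5 probe sets for translocation into the endoplasmic reticulum lay between -0.18 and 0.17. Sec61b, a small subunit of the channel, read 43823, 39958 and 42279 against 37388, 38026 and 36707, so the diets did not overlap, by a log2 difference of only 0.17 ± 0.12. Sec61a1, which forms the pore, read 12867.5, 9249 and 6535 against 8878, 10667 and 9885, and its 3 high corn oil values spanned those of the low diet (-0.09 ± 0.24). The translocation factor gene Sec62 was at 0.11 ± 0.14. Sec11a, the catalytic subunit of signal peptidase, was at -0.18 ± 0.23 and -0.07 ± 0.13.

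Genes with a Rab symbol were the largest subgroup, with 30 genes, of which 25 were tested by 32 probe sets. All are Rab GTPases but Rab11fip5, a Rab11-binding protein (-0.27 ± 0.28), and Rab3ip, a Rab exchange factor (-0.14 ± 0.29), which the symbol rule takes in. Differences ran from -1.08 to 1.15 with a median of -0.05, and 14 were above 0 and 18 below. In 5 of 32 (15.6%) the diets did not overlap, against 15.5% of all tested probe sets. Those higher under the high diet were Rab3a, Rab34 and 1 of 3 probe sets of Rab11a, and those lower were Rab7a and Rab5b.

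Rab7a and Rab5b, which mark late and early endosomes, both read lower on every high corn oil array than on any low one. Neither passed the adjusted threshold. Rab7a read 2959.9, 4249 and 3969 against 5158.5, 5087 and 5338, a log2 difference of -0.48 ± 0.17 (limma adjusted p = 0.480). The low arrays were close to each other, and every high array was below them. High corn oil replicate 1 was the lowest, and Rab7a stood at -0.76 at the higher spike-in level and -0.37 at the lower. Rab5b read 3320.4, 3316 and 3104 against 3563.5, 3846 and 4337.5, a smaller log2 difference of -0.255 ± 0.148 (limma adjusted p = 0.538). Its close relative Rab5a overlapped between diets in both probe sets (-0.22 ± 0.21 and -0.11 ± 0.20).

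Rab11a and Rab11b, of recycling endosomes, showed how far probe sets of 1 gene can differ. One probe set of Rab11a read 6633, 6149 and 6867 against 5747.5, 4897 and 4829.5 (0.34 ± 0.14), while the others were at 0.08 ± 0.19 and 0.05 ± 0.18. For Rab11b the probe sets were at 0.14 ± 0.15, -0.14 ± 0.16 and -0.77 ± 1.10. The last was -2186 on high corn oil replicate 2, a value set to 0 before the log, and without that array it turned to 0.54.

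Rab34, a Golgi Rab needed for cilium formation, and Rab14, of Golgi and endosome traffic, stood apart in opposite directions on the same 2 arrays. Rab34 read 2716, 5196 and 5192 against 2709.8, 2633 and 2671. High corn oil replicate 1 was level with the low arrays, and the other high arrays were far above them. The difference of 0.62 ± 0.26 became 0.92 without high corn oil replicate 1 (limma adjusted p = 0.0283), and was 0.02 at the higher spike-in level and 0.92 at the lower. A second Rab34 probe set, below the filter, read 85.1, 339 and 88.9 against 105, 54.9 and 192. Rab14, singled out after its values were seen, read 9714.5, 2746 and 2421 against 8555, 9236 and 6018. Its difference of -0.92 ± 0.50 became -1.54 without that array (limma adjusted p = 0.0257), and was 0.13 and -1.17 within the spike-in levels. Pbsn and Msmb, given for the tissue check, were lowest on the same pair of arrays as Rab14, with Msmb at 33652 and 39953 there and at least 66835 elsewhere. Sbp, from the same check, was instead highest on that pair, at 45313 and 53056. The part of these array differences in the Rab values was not tested.

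Among Rab GTPases of secretory granules, members of the Rab3 family lay on both sides of 0. Rab3a, known from synaptic vesicles, read 675.0, 1324 and 1272 on high corn oil and 376, 631 and 652.5 on low corn oil. Its groups did not overlap, but high corn oil replicate 1 was just above the highest low array (log2 difference 0.79 ± 0.32, limma adjusted p = 0.494). It was at 0.36 at the higher spike-in level and 0.85 at the lower. Rab3b read 588.5, 1074.5 and 431 against 2429, 1461 and 1069.9, the lowest difference of any Rab at -1.08 ± 0.38. Its groups met where high corn oil replicate 2 passed low corn oil replicate 3, and it was at -1.46 and -0.53 within the spike-in levels. A second Rab3b probe set, below the filter, read -301, 384.5 and -94.3 against 18.8, 67.4 and 4.8. Rab3c was at 0.30 ± 0.30.

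Rab3d and Rab26 act in the granules of exocrine cells, and they lay on opposite sides of 0. Rab3d read 5738, 2954 and 3217 against 5799, 6476 and 3751 (-0.44 ± 0.30). It was higher on all 3 arrays of the higher spike-in level than on the other 3, whatever the diet, and the difference within the levels was -0.09 and -0.27. It ran from -0.73 to -0.27 when each array was left out. Rab26, named after its values were seen, read 652, 1063.5 and 1189 against 839, 323 and 95.5, a difference of 1.15 ± 0.51. It was 0.23 at the higher spike-in level and 2.35 at the lower, where the only low corn oil array was the dimmest of the 6. Rab27a, which docks granules, was near or below 0 on all arrays, from -452 to 185.

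**Figure D3:**
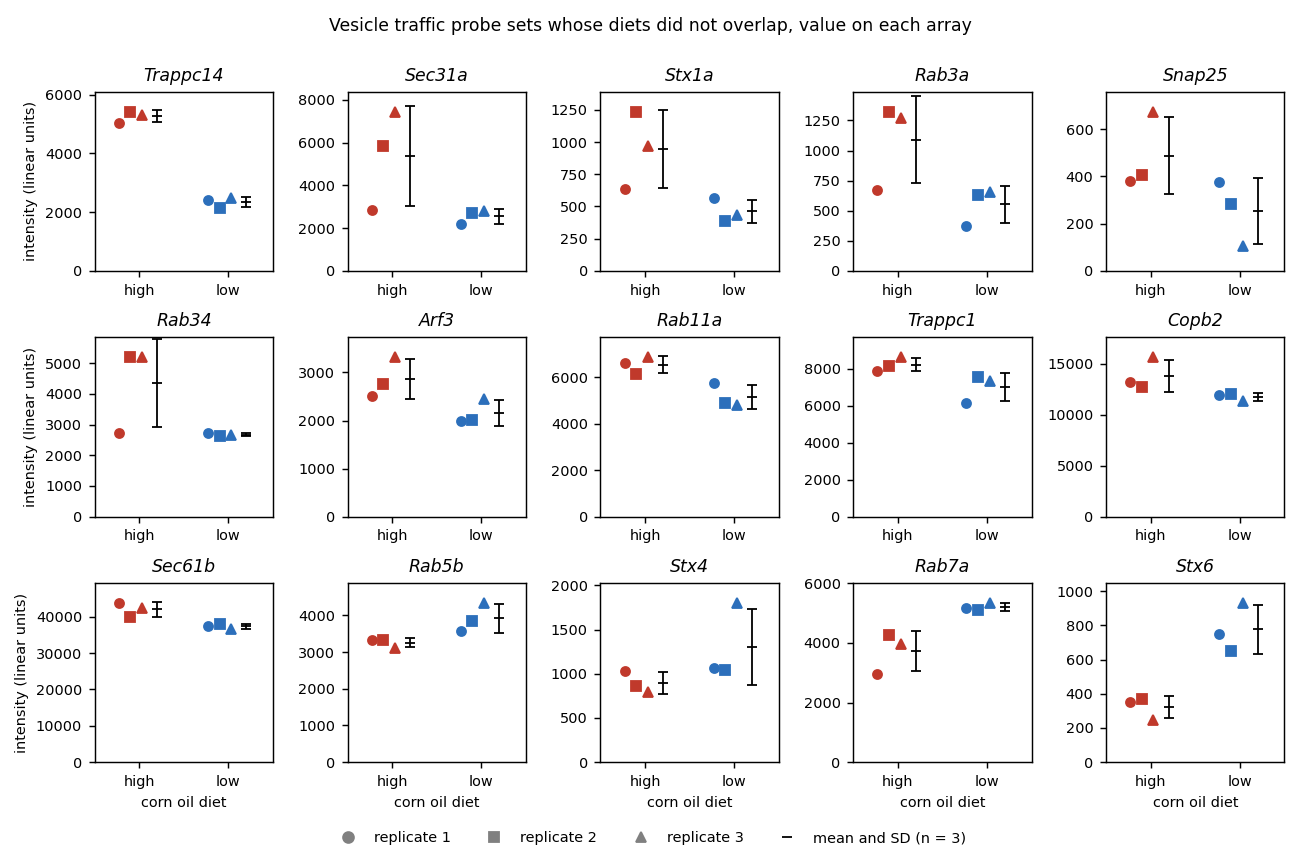
Intensity on each array of the 15 probe sets whose diets did not overlap, in linear units from 0; red is the high diet, blue the low diet, symbols are replicates, and the bars to the right of each group are its mean and SD (n = 3). Trappc14, Rab7a and Stx6 are separated by wide gaps, while Rab34, Stx4 and Snap25 are separated by a narrow gap at 1 array.

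Syntaxins, the target-membrane SNAREs, leaned lower under the high diet, with 9 of 12 probe sets below 0 and a median of -0.20. The median was from -0.22 to -0.12 when each array was left out, and -0.06 with 1 probe set per gene. Stx6, which works between the trans-Golgi network and endosomes, read 349, 371 and 247 against 748, 648 and 931. Every high array was well below every low array (log2 difference -0.96 ± 0.28, limma adjusted p = 0.462), and the difference was -0.75 and -1.24 within the spike-in levels. Stx4, the plasma membrane syntaxin of most cells, read 1037, 865 and 793 against 1069, 1039 and 1802. Its groups nearly met, and the difference of -0.44 ± 0.26 was -0.20 without low corn oil replicate 3, and -0.02 and -0.99 within the spike-in levels.

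Stx6 is shown because it had the lowest difference of the 4 probe sets that were lower with groups apart. Its RefSeq GRCr8 promoter window lies on the plus strand at chr13:69882397-69882696. Capitals mark CACGTG, the core letters of the lysosomal element.
Stx6: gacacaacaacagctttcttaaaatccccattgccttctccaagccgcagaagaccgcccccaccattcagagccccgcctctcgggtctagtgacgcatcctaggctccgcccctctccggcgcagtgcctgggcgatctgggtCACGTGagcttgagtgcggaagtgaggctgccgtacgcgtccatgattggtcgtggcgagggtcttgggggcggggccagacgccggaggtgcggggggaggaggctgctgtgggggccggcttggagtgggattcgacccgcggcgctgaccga
The match begins 105 bases before the gene start, and the longer lysosomal element is not among the letters of this window.

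The endosomal syntaxins Stx12 and Stx8 were each measured by a dim and a brighter probe set. For Stx12 the dim one read 1071.5, -12.4 and 401 against 749, 844.5 and 931 (-1.07 ± 0.69), and the brighter one stood at -0.08 ± 0.17. Stx8 was at -0.66 ± 0.42 in the dim and -0.04 ± 0.17 in the brighter one. The 2 probe sets of a gene had the same sign, and the difference between them was not tested. The dim ones were at 0.37 and -1.88 (Stx12) and at 0.072 and -0.88 (Stx8) within the spike-in levels. Stx7, also endosomal, was at 0.30 ± 0.30 and Stx3, of apical membranes, at -0.27 ± 0.28.

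Among the SNAREs of synaptic exocytosis, Stx1a, Snap25 and Vamp2 each had 1 probe set above 0.6 and Vamp1 had none. Stx1a, the neuronal plasma membrane syntaxin, read 635, 1236 and 972 against 565.5, 388 and 432 (0.81 ± 0.30, limma adjusted p = 0.480), with 0.34 at the higher spike-in level and 1.09 at the lower. A second Stx1a probe set, below the filter, read 1432, -397 and -593 against 573, 337 and 125, with high corn oil replicates 2 and 3 the lowest. Snap25, its partner, read 382, 407 and 673.5 against 376.5, 282 and 104 in a dim probe set (0.68 ± 0.40) and 1472, 1947 and 2489.9 against 1910.5, 1787 and 1380.3 in a brighter one (0.18 ± 0.24, groups overlapping). The dim probe set was at 0.15 at the higher spike-in level and 1.40 at the lower, and at 0.39 without low corn oil replicate 3. The other 2 Snap25 probe sets, below the filter, were at or under 68 on every array but high corn oil replicate 1, where 1 of them read 357. Vamp2, the vesicle partner, read 5096, 11099.5 and 7509.5 against 4306, 4631 and 5849 in one probe set (0.61 ± 0.28) and was at 0.06 ± 0.19 in the other. The first was at 0.18 and 0.63 within the spike-in levels, and at 0.33 without high corn oil replicate 2. Vamp1, the other synaptic vesicle form, read 855, 673 and 1865 against 1196, 742 and 1361 in its tested probe set (-0.04 ± 0.38), and its other probe set was at or below 0 on 5 arrays.

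Markers of neurons and neuroendocrine cells gave mixed values. Of 14 such markers 10 were measured and 3 passed the filter. Syn1, of synaptic vesicles, read 784, 1820 and 1546 against 777, 883 and 989.5 (0.50 ± 0.31), and Gap43, of growing nerve endings and below the filter, read -246, 1069 and 697 against -367, -179 and 333. Both were highest on high corn oil replicates 2 and 3, as were Rab3a, Stx1a and the first Vamp2 probe set. The neuronal hydrolase gene Uchl1 was at -0.40 ± 0.35 and the neurofilament gene Nefl at -0.49 ± 0.33, with groups apart. The sum of the 3 tested markers ranged from 2236 to 4650 under the high diet and from 3049 to 5222 under the low diet. Chgb and Syn2 were below 0 on all arrays and Syp reached at most 245. The part of nerve content in the SNARE values was not tested.

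The remaining SNAREs of these families lay between -0.27 and 0.37. Snap23, the form of SNAP-25 outside neurons, was at 0.07 ± 0.21 and 0.16 ± 0.23 in its probe sets, and Snap29, of endosomes and autophagosomes, at 0.37 ± 0.36. Vamp3, of recycling endosomes, was at 0.01 ± 0.19, Vamp5 at -0.27 ± 0.24 and the vesicle SNARE gene Sec22a at 0.31 ± 0.38. Of the 6 tested VAMP and Sec22 probe sets none had groups apart. The 5 tested SNAP probe sets, which measure 3 genes, were all above 0 and 1 had groups apart, where 53.9% of all tested probe sets were above 0 and 15.5% had groups apart.

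Grouped by where the proteins mainly act, an assignment from textbook knowledge made after the values were seen, the family divided as follows. Endosome and lysosome genes had 20 tested probe sets, 14 of them below 0, with a median of -0.13. Endoplasmic reticulum and Golgi genes had 28 tested probe sets, with 17 above 0 and a median of 0.06. In 6 of these (21.4%) the groups were apart, all higher under the high diet. Over all tested probe sets 15.5% had groups apart (8.83% higher, 6.71% lower). Genes of regulated exocytosis had 15, with 10 above 0 and a median of 0.16. In 4 of the 15 (26.7%) the groups were apart, 3 of them higher and 1 lower. Among the 15 probe sets of genes not placed, 1 (6.67%) had groups apart. Over all tested probe sets the median was 0.03. The difference between these sets was not tested, and each held values on both sides of 0. Stx6, lower with groups apart, works between the trans-Golgi network and endosomes and was counted with endosomes. The Golgi Rab gene Rab34, higher with groups apart, was not placed. The counts by place, and their directions, therefore depend on the assignment.

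**Figure D4:**
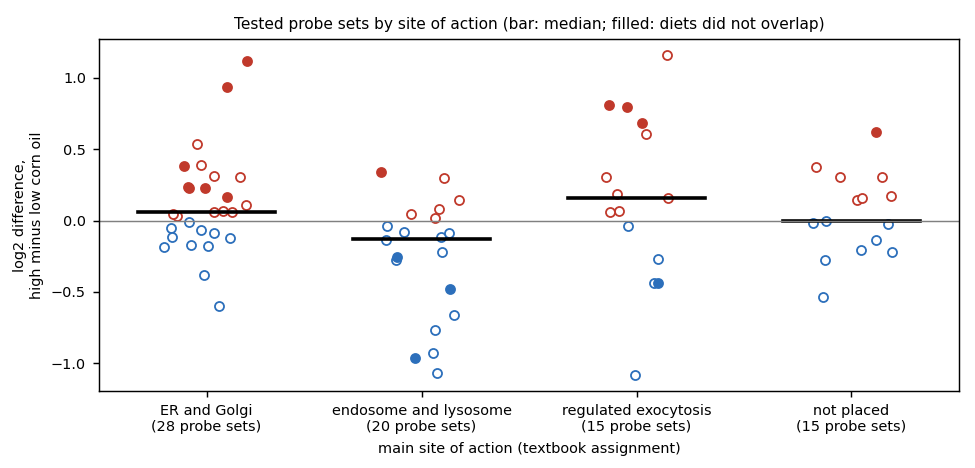
Log2 difference (high minus low corn oil) of the tested probe sets by the main site where the protein acts, with the median as a bar and filled points where the diets did not overlap; red is above 0 and blue below. The medians are 0.06 for endoplasmic reticulum and Golgi, -0.13 for endosome and lysosome, 0.16 for regulated exocytosis and -0.01 for the rest.

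Other genes of the same route, from a list of 132 that the symbol rule left out, were tested in the same way. Of 50 above the filter, with 1 probe set per gene, 28 were higher and 22 lower, and the median was 0.03. None passed limma's adjusted threshold and 1 (2.0%) had an unadjusted p under 0.05, against 9.58% of all genes. In 5 of 50 the groups were apart, against 15.7% of all genes, and all 5 were higher under the high diet (9.39% of all genes were apart and higher, 6.33% apart and lower). They were Rabggta, a subunit of the enzyme that attaches lipid anchors to Rab proteins (0.72 ± 0.29), Napa, which takes SNARE pairs apart (0.30 ± 0.13), Ddost of the oligosaccharyl transferase (0.32 ± 0.16), the cargo receptor Tmed2 (0.15 ± 0.12) and the Rab acceptor Rabac1 (0.14 ± 0.12). Rabggta read 477, 661 and 586 against 252, 246 and 364.

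By step of the route, 5 of 6 other genes of the Rab cycle were higher (median 0.14), 11 of 16 of Arf and Golgi (0.15) and 4 of 6 of translocation (0.10). Of 22 fusion genes 14 were lower (median -0.09). Their mean relative to the low diet was 0.19 in high corn oil replicate 1 and -0.44 and -0.26 in replicates 2 and 3. The mean on replicate 2 leaned on genes near the floor. There Exoc4 read -70.1 and Ykt6 -113, both set to 0 before the log, and Exoc5 read 97.1. The lower mean is therefore no result about the fusion genes as a set.

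Cell type markers also differed between the diets, beside all of the values above. All 7 tested fibroblast markers were lower under the high diet, with 6 apart and a median of -0.63, where 6.33% of all genes were apart and lower, and their summed level was 57466 to 78434 against 89997 to 125568. Smooth muscle genes were lower in 9 of 10 cases (median -0.32), with sums of 162460 to 220421 against 205283 to 257493. Of 8 macrophage and leukocyte markers 7 were lower, with 4 apart, a median of -0.36 and sums of 73571 to 95890 against 89479 to 97452. All 7 skeletal muscle markers were lower (median -0.30) with overlapping sums, 17743 to 39099 against 28077 to 34385. Of 3 mast cell markers 2 were higher, and the sum of the 3 was 5361 to 8273 against 8834 to 10936, with Mcpt1l1 at -1.62 ± 0.34. Luminal epithelial markers were 6 higher and 4 lower (median 0.06), with sums of 237576 to 335099 against 292856 to 341323. No marker in these lists passed limma's adjusted threshold, and the part of cell content in the vesicle traffic values was not tested.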

How the data were processed

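RNA from 6 rats was measured on 6 short-oligonucleotide arrays of 8799 probe sets, of which 59 are controls. The deposited intensity values are on a linear scale. The authors scaled the arrays to a common level: without the highest and lowest 2% of values, the mean was 2503 or 2504 on every array. The submitters' processing notes name MAS5; its version and settings are not given in the sources used here. Values at or below 0, 18.6% to 23.1% of an array, are not that tool's usual output. Equal values made up at most 0.0568% of any pair of arrays. The number of arrays limits the precision.

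Names came from the platform annotation, updated through gene identifiers to GRCr8 symbols (all 97 probe sets of the family matched); 308 probe sets with several genes and 1426 with none were not named. Values below 0 were set to 0 and taken as log2(value + 156.1), a pseudocount of the overall median, 624.6, divided by 4. Probe sets with a mean of at least 343, the 40th percentile, were tested (5244) with limma 3.58.1 in R 4.3.3 (lmFit, eBayes with an intensity trend, both directions), on 3 against 3 arrays with no covariate and Benjamini-Hochberg adjustment at 0.05. Standard errors are moderated. The step was also run on simulated data with independent noise in each probe set and array. That simulation held no difference shared by a whole array, so it says nothing about the array differences described above. Places of action and promoter motifs were assigned after the values were seen. P-values measure the spread between these rats.

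The family, subgroups and lists were chosen with earlier results of these data known. Named genes were all members with groups apart, the member with the smallest p in each subgroup, those whose probe sets lay on both sides of 0 at least 0.5 apart, and 16 fixed genes, of which 12 were measured. Replicate numbers are shared between the diets, but same-numbered arrays did not deviate together: the correlations of their deviations from the diet means were -0.05, -0.20 and 0.18. Alternatives are given in the closing section.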

Additional observations from a re-analysis of the deposited data

How the results depend on the processing

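With all 6 arrays limma called 0 of the 78 family probe sets, and 21 other settings were tried. The count stayed at 0 except with no filter (1, Trappc14, and 9 in the whole table) and where high corn oil replicate 1 was left out (5, and 5 with quantile normalization of the other arrays; 214 and 218 in the whole table). Leaving out each array in turn gave 0 to 5 family and 0 to 214 table calls, 3 to 17 family probe sets at an unadjusted p under 0.05 (9 with all arrays; 17 without high corn oil replicate 1, 3 without replicate 3) and 15 to 37 with groups apart (15 with all). The unadjusted count was 22 with array weights, 20 with quantile normalization of 5 arrays (39 apart), and 0, with 0 apart, when replicate 3 of the high diet was put with the low diet, as its description has it. The 37 apart, without high corn oil replicate 1, were 47.4% of the 78, against 46.1% of all tested probe sets. For the other unadjusted and apart counts of these alternatives no share over all probe sets was taken, so they are no result about the family. The replicate block changed no call and gave an unadjusted count of 9; same-numbered arrays are not known to be paired.

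The family median was -0.011 after median centring and -0.015 with quantile normalization of 5 arrays, against 0.02. With array weights the medians were 0.24 for VAMPs and Sec22, 0.36 for SNAPs and -0.14 for TRAPP. With replicate 3 of the high diet moved they were 0.035 for COPI, 0.11 for COPII and 0.12 for TRAPP. With 1 probe set per gene COPI was at 0.033, COPII at 0.044 and syntaxins at -0.063, and with a gene's probe sets averaged COPI was at 0.033, syntaxins at -0.31 and SNAPs at 0.37. With each array left out the medians ran from -0.025 to 0.042 for the family, -0.077 to 0.055 for Rab, 0.064 to 0.15 for Arf, 0.34 to 0.89 for COPII, -0.13 to 0.044 for translocation, 0.14 to 0.36 for SNAPs and -0.12 to 0.095 for TRAPP. The cause of these shifts was not tested.

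Some named values changed sign, all of them under 0.3 in size with all arrays except 1 Rab11b probe set at -0.77. With replicate 3 of the high diet moved, the third Sec31a probe set was at -0.0051, Sec61a1 at 0.30, the brighter Snap23 at -0.016, the brighter Snap25 at -0.12 and the second Vamp2 at -0.038. With the spike-in block the third Sec31a was at -0.042 and Sec61a1 at 0.029. The 2 Rab11a probe sets nearest 0 were at -0.080 and -0.12 with quantile normalization of 5 arrays, where the dimmer Snap23 was at -0.11, and 1 of them was at -0.12 with array weights. The average over the Rab11b probe sets was -0.26, against 0.14 for the brightest. Leaving out arrays gave -0.18 to 0.010 for Copb1, -0.050 to 0.22 and -0.051 to 0.18 for Rab11a, -1.77 to 0.54 for Rab11b, -0.022 to 0.16 for Sec31a, -0.33 to 0.16 for Sec61a1, -0.067 to 0.21 for Snap23 and -0.078 to 0.19 for Vamp2. The number of arrays and the signal near 0 limit what can be seen in dim genes.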

Other observations

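A pair of probe sets measures Rab1a and Rab1b together, the Rab GTPases of traffic from the endoplasmic reticulum to the Golgi, and belonged to neither gene. One read 5580.5, 2108 and 3071 on high corn oil and 7129, 5732 and 3942 on low corn oil. The other read 2576, -645 and -166 against 2543, 1998 and 989.8. In both, high corn oil replicates 2 and 3 were the lowest of the 6 arrays and low corn oil replicate 3 came next. These were the arrays of the lower spike-in level, whatever the diet. High corn oil replicate 1 read within the low range in the first probe set and just above it in the other. The probe set of Rab1a alone read 2124, 2243 and 2285 against 1569.5, 1409 and 2878, an order that the shared probe sets did not repeat.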
